A study of Homo sapiens with 2 samples.

Results

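The EGR, FOS and JUN genes encode transcription factors, many of which growth factors, serum and stress switch on within minutes. EGR proteins bind GC-rich DNA through zinc fingers. FOS and JUN proteins pair through a leucine zipper to form the dimer called AP-1, and JUN proteins can also pair with each other. Signals reach these genes through the ERK, JNK and p38 kinases, which act on SRF, on its ETS cofactors such as ELK1, and on CREB at the promoters. In cultured epithelial cells these factors are known for linking growth factor signals to proliferation, migration and matrix turnover.

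The genes considered were EGR1, EGR2, EGR3, FOS, FOSB, FOSL1, FOSL2, JUN, JUNB and JUND. A probe set, which is the group of probes that an Affymetrix array reads for a transcript, was taken when its only gene symbol in the platform annotation was a member. This gave 21 of 54613 probe sets, for 9 of the 10 genes, out of 19775 genes with a named probe set in all. EGR2 had no probe set by this rule and was not analysed here.

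The cells were hTERT-RPE1, a line derived from human retinal pigment epithelium and immortalised by telomerase, in medium with 10% fetal bovine serum and hygromycin B. The miR-129-3p group received a miR-129-3p oligo and the control group a control oligo. Both groups were transfected with the same lipid reagent and taken for RNA after 72 h. Overexpression here therefore means transient transfection of an oligo, and the oligo doses and the control sequence are not given in the sources used here. With 1 array per group, replicate error is unknown for all values, nothing was tested, and each difference describes these 2 arrays rather than the conditions.

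The labels name miR-129-3p without saying which of its precursors the oligo followed, so both mature human forms of RefSeq (GRCh38.p14) are shown, with the seed (bases 2 to 8, the part that pairs with targets) in capitals.
hsa-miR-129-1-3p (chr7:128207920-128207941, plus strand): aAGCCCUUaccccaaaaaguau
hsa-miR-129-2-3p (chr11:43581450-43581471, plus strand): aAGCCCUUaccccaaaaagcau
Both forms share the seed and differ at 1 base, U20C, with positions counted from 1 at the 5′ end and the base of hsa-miR-129-1-3p given first. Matches of this seed in the members' transcripts were not analysed here.

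Signals are deposited intensities on a linear scale. Differences are log2(signal + 16) on the miR-129-3p array minus the same on the control array, a scale that understates differences of dim genes. The probe set brightest on average (mean log2 level) stood for its gene, which was counted as measured when it reached 100 on the brighter array. Folds given against this filter value of 100 are plain ratios of signals, without the added 16. The median signal over all probe sets was 98.0 on the miR-129-3p array and 96.5 on the control array. Probe sets of the same gene scattered with a pooled SD of 0.37 in their differences (6179 genes with several above the filter), which leaves out any variation between cultures.

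The members did not share a direction. EGR1, EGR3, FOS and FOSB had lower signals with miR-129-3p. FOSL1 and FOSL2 had higher ones, and the 3 JUN genes differed by less than 1.5-fold, each gene by its brightest probe set. Of the 9 measured members 4 (44.4%) were at least 1.5-fold lower, against 10.8% of 12754 measured genes, and 2 (22.2%) were at least 1.5-fold higher, against 17.3%. The median difference of the members was -0.36 and that of all measured genes 0.03. At 2-fold, 2 members were lower and 1 higher, where 4.56% of all genes were lower and 7.83% higher. At 3-fold, 2 members were lower and 0 higher, where 1.73% of all genes were lower and 3.71% higher. EGR3 and FOSB passed the filter only through the control array, where they were brighter, so the filter itself favours a lower call for them. Among the 7 members at 100 or more on both arrays, 2 were at least 1.5-fold lower (EGR1 and FOS) and 2 higher, where such genes gave 10.4% lower and 15.7% higher, and the members' median was 0.25. These arrays read whole cultures, in which fewer cells of a type and less RNA per cell cannot be told apart.

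By probe set, 17 of the 21 reached the filter. Of these 6 (35.3%) were at least 1.5-fold lower and 3 (17.6%) at least 1.5-fold higher, against 11.1% lower and 16.7% higher of 23707 named probe sets above the filter. Probe sets of a gene read the same RNA and are not replicates.

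**Figure D1:**
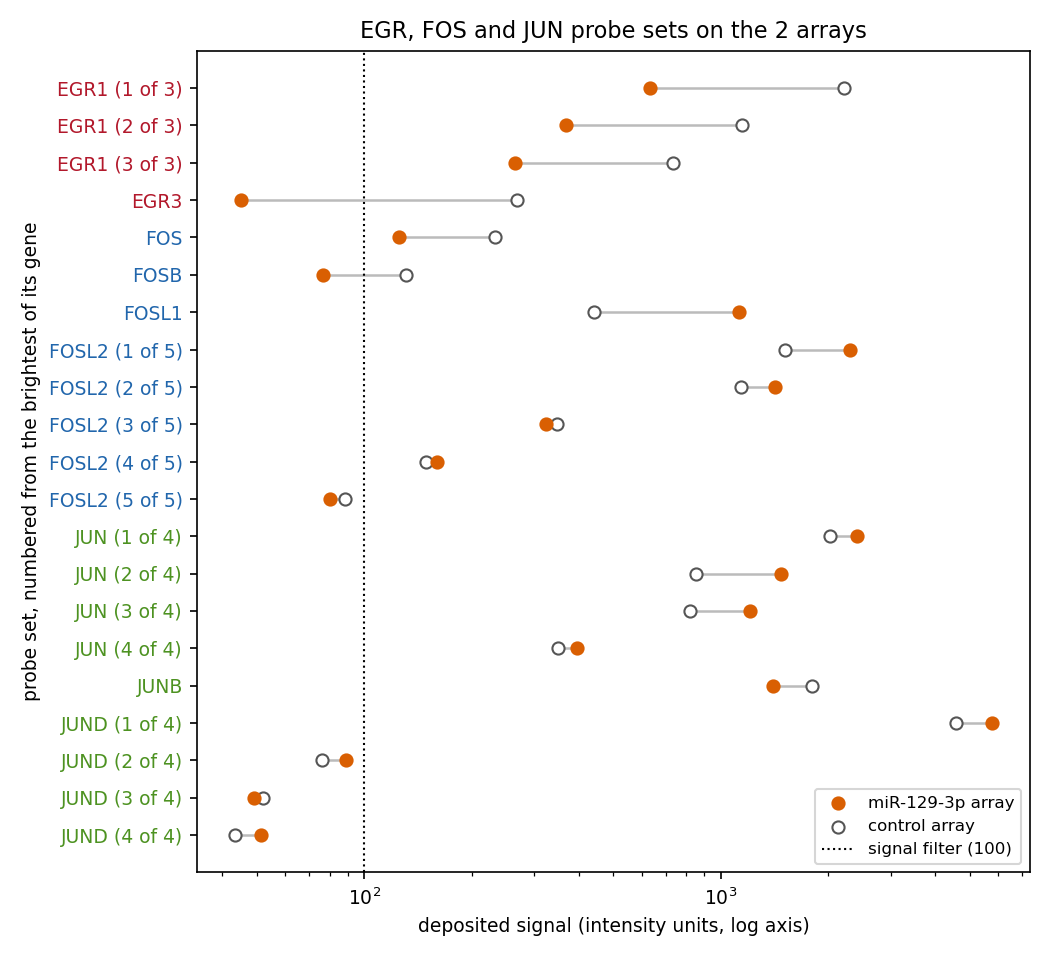
Deposited signal (intensity units, log axis) of each of the 21 member probe sets, 1 row each, with the miR-129-3p array as filled points and the control array as open points; the dotted line is the filter of 100. All 4 EGR probe sets lie to the left with miR-129-3p, and EGR3 crosses the filter, while FOSL1, the brightest FOSL2 rows and the 4 JUN rows lie to the right.

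EGR1 is a zinc finger factor induced by most growth signals and the most studied of its family. Its brightest probe set read 632 with miR-129-3p and 2217 in control, a log2 difference of -1.78 (3.45-fold lower). A further EGR1 probe set read 368 with miR-129-3p and 1150 in control (-1.60), and the dimmest read 264 and 734 in the same order of arrays (-1.42). All 3 EGR1 probe sets were thus at least 2.67-fold lower and above the filter on both arrays. The names of all 3 end in _s_at, so EGR1 has no value when probe sets ending in _x_at or _s_at are left out. Of all measured genes, 162 (1.27%) had a lower difference than EGR1.

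EGR3 is a relative with the same DNA-binding domain, itself induced by EGR1 in some cell types, a link that was not tested here. Its single probe set read 45.2 with miR-129-3p and 269 in control, a difference of -2.22 (4.65-fold lower). The miR-129-3p signal is under the filter, so the size depends on how dim signals are treated. Set against the filter value of 100, EGR3 was at least 2.69-fold lower. On the measured scale 77 genes (0.604%) had a lower difference.

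FOS, the founding member of its family and a partner of JUN, had a single probe set that read 125 with miR-129-3p and 232 in control. Its difference was -0.81 (1.76-fold lower). FOSB, a close relative, read 76.6 with miR-129-3p and 131 in control (-0.67, 1.59-fold lower). Both were dim on both arrays. When signals under 100 were set to 100, the FOSB difference was only -0.34, which is under the 1.5-fold limit. Among all measured genes 838 (6.57%) had a lower difference than FOS and 1124 (8.81%) a lower one than FOSB.

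FOSL1 encodes FRA1, a FOS relative that lacks the FOS transactivation domain and whose protein ERK signalling stabilises. It had the highest difference among the members. Its single probe set read 1123 with miR-129-3p and 441 in control, a difference of 1.32 (2.49-fold higher). That signal was above the filter on both arrays, and 650 genes (5.10%) had a higher difference.

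FOSL2 encodes FRA2, another such relative, and its 5 probe sets went apart. The brightest read 2312 with miR-129-3p and 1518 in control, a difference of 0.60 that lies just past the limit of 0.58 for 1.5-fold. The next read 1423 with miR-129-3p and 1143 in control (0.31). The remaining 2 above the filter differed by -0.10 and 0.09, and the fifth was under 100 on both arrays, at 80.0 with miR-129-3p and 88.6 in control. The call of FOSL2 as higher therefore rests on 1 of 4 measured probe sets, and with the mean of all its probe sets its difference was 0.16. Under the 3 other scalings of the arrays it was 0.54 to 0.58, under the limit.

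**Figure D2:**
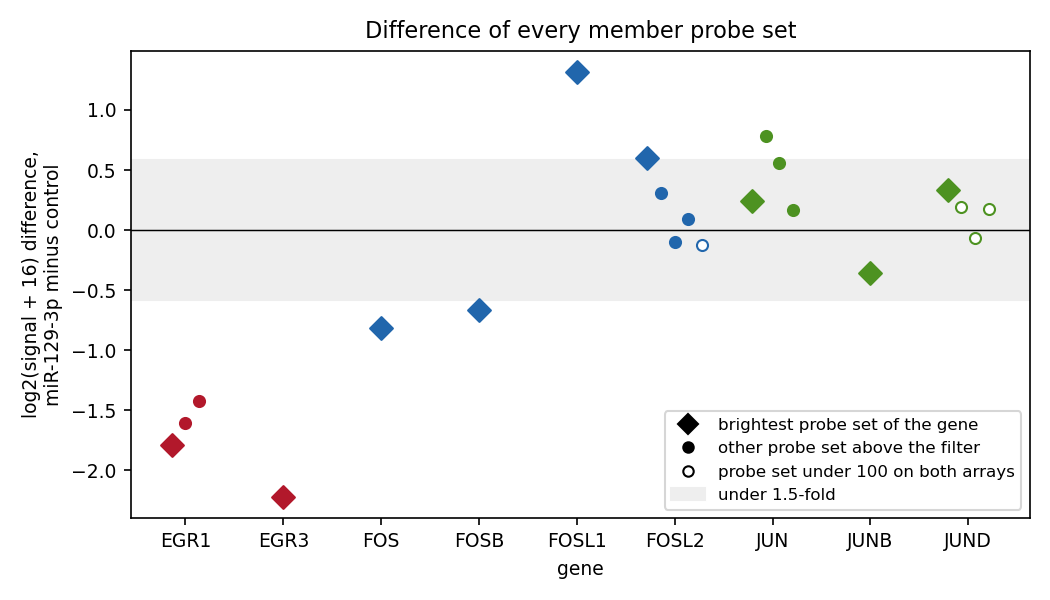
Difference in log2(signal + 16), miR-129-3p minus control, for every probe set of each gene; diamonds are the probe set used for the gene, open points are under 100 on both arrays, and the grey band is under 1.5-fold. The EGR1 points cluster between -1.78 and -1.42, while the JUN points spread between 0.17 and 0.78 and straddle the edge of the band.

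JUN is the AP-1 subunit whose activity JNK raises by phosphorylation, and it activates its own promoter. Its brightest probe set read 2407 with miR-129-3p and 2027 in control, a difference of 0.25. That probe set carries the _x_at suffix, which the array's maker gives to probe sets that may also match other transcripts. The other JUN probe sets read 1476 and 853 (0.78), 1211 and 818 (0.56), and 396 and 350 (0.17), the miR-129-3p array first in each pair. All 4 lay above 0, and 1 of the 4 passed 1.5-fold.

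JUNB, which can oppose JUN in growth control, read 1403 with miR-129-3p and 1800 in control (-0.36). JUND, the member of the family with the steadiest expression in resting cells, read 5762 with miR-129-3p and 4573 in control on its brightest probe set (0.33). Its other 3 probe sets were under the filter on both arrays, between 49.1 and 89.1 with miR-129-3p and between 43.5 and 76.1 in control. The JUNB and JUND differences were smaller than the pooled SD of 0.37 between probe sets of a gene.

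**Figure D3:**
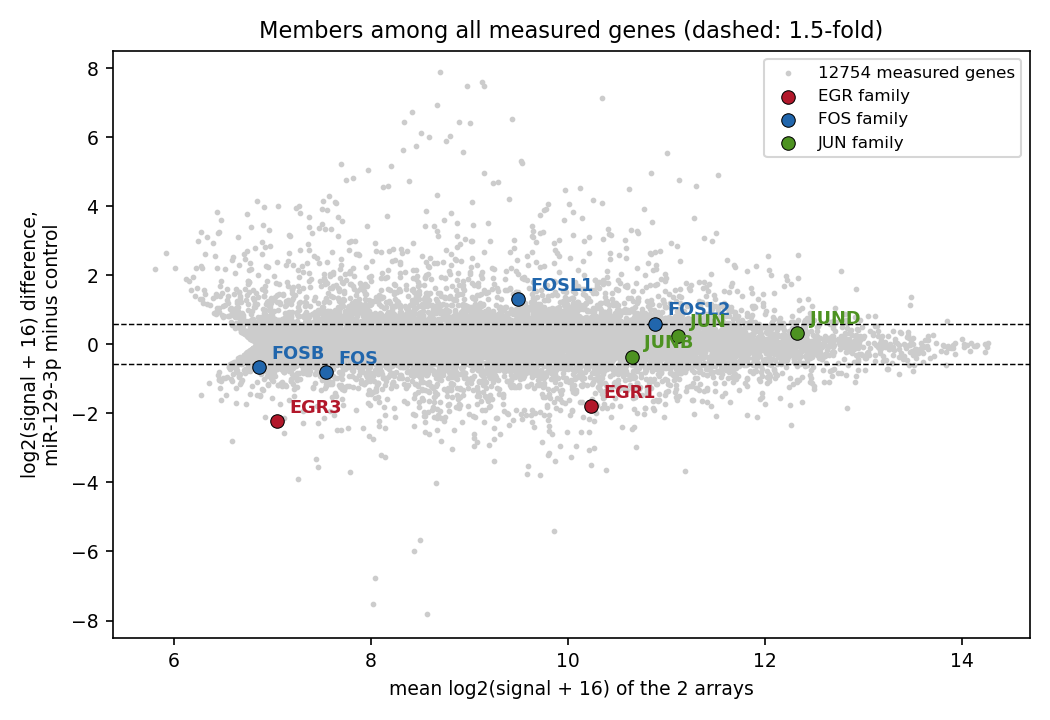
Difference in log2(signal + 16), miR-129-3p minus control, against the mean log2(signal + 16) of both arrays for 12754 measured genes (grey) and the 9 measured members (coloured by family); dashed lines mark 1.5-fold. EGR1 and EGR3 lie in the lower fringe of the cloud at high and low signal, FOSL1 lies above the upper dashed line, and the JUN family lies inside the dashed lines.

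Promoters are shown for EGR1, FOS and FOSB, which had lower signals, and for JUN, which did not, because immediate-early genes are controlled close to their start. The sequences are the 150 bases before the start in RefSeq (GRCh38.p14), read along the gene, with matches to the CArG box (the site of SRF), to TGACG (the core of the CREB site), to TGACNTCA (the full CREB site and its JUN variant) and to TATAAA in capitals, on either strand.
EGR1 (chr5:138465329-138465478, plus strand): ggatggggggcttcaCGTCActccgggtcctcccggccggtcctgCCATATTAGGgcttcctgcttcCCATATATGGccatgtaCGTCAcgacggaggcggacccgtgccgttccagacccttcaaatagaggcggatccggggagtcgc
FOS (chr14:75278678-75278827, plus strand): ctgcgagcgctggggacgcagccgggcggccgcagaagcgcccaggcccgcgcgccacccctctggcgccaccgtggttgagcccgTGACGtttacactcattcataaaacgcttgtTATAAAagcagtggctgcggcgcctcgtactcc
FOSB (chr19:45467846-45467995, plus strand): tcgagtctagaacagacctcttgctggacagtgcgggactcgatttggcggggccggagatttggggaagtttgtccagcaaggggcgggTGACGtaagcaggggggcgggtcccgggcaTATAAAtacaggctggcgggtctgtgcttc
JUN (chr1:58784048-58784197, minus strand): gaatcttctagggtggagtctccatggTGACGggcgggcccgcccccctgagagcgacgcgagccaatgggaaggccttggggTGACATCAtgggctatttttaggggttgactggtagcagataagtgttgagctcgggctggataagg

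EGR1 held 2 CArG boxes, CCATATTAGG and CCATATATGG, whose first bases lie 105 and 83 bases before the start. FOS and FOSB had the same arrangement as each other, a TGACG at -64 and -60 followed by TATAAA at -33 and -30. The well-known SRF site of FOS lies further upstream than the stretch shown. JUN held TGACATCA at -67, its known site for JUN and ATF2 dimers.

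Of the 10 members 8 had promoters in the table used, with 10 windows of 250 bases before to 50 after a start. EGR3 and FOSL1, the members with the lowest (-2.22) and highest (1.32) differences, had no promoter there. Members are counted as genes, of which EGR2 has 3 windows, and the background as single windows. A CArG box lay in a window of 2 of the 8, EGR1 and EGR2, and in 1.29% of all 35116 windows. EGR2 had no probe set by the naming rule used here, so no signal is given for it. The FOS window held 0 CArG boxes and does not reach its well-known SRF site. TGACG lay in a window of all 8, and in 24.6% of all windows. TATAAA lay in 3 of the 8 (FOS, FOSB and JUNB) and in 11.5% of all windows. TGACNTCA lay in 2 of the 8 (JUN and JUND) and in 7.72% of all windows; the JUND match overlaps 2 of its TGACG matches. The AP-1 site TGANTCA lay in 1, FOSL2, and in 7.71% of all windows, and the EGR site GCGNGGGCG in 2, EGR1 and EGR2, and in 9.43%. Over the arrays, 37 of 171 measured genes with a CArG box in a window (21.6%) were lower by 1.5-fold or more and 28 (16.4%) higher; their median difference was -0.11. Among all 10338 measured genes with a window, 10.7% were lower and 17.3% higher, with a median of 0.04. EGR1 is itself among the 171. Any part of CArG boxes or SRF in its lower signal was not tested. A match is a run of letters and not a shown binding site.

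SRF and the other factors that bind these promoters were compared as a list of 9 genes, all measured. SRF, the factor that binds CArG boxes, read 438 with miR-129-3p and 1016 in control (-1.18, 2.27-fold lower). ELK4, an ETS cofactor of SRF, was lower as well (-0.87, the lowest of its 3 probe sets, which reached up to -0.27). ELK3, another of these cofactors, read 3127 with miR-129-3p and 1970 in control (0.66). Past 1.5-fold were 2 lower genes (22.2%) and 1 higher gene (11.1%) of the 9, against 10.8% lower and 17.3% higher of all measured genes. The median was -0.22.

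The kinases above these factors were read as RNA, which does not measure their activity. Of 24 measured genes in 2 lists of kinase cascades 16 (66.7%) were within 1.5-fold, against 71.9% of all measured genes. In the RAS to ERK list, of 13 measured genes 2 passed 1.5-fold upward and 2 downward (median 0.31). EGFR, the EGF receptor, read 607 with miR-129-3p and 1977 in control on its brightest probe set (-1.68), but its 5 probe sets above the filter ran from -1.68 to 0.66. RPS6KA1, an ERK-activated kinase, read 304 with miR-129-3p and 150 in control (0.94). GRB2, the adaptor that links receptors to RAS, stood at 0.65, with 0.20 on the lowest of its 3 probe sets above the filter. RPS6KA2 stood at -0.59, at the very limit for a call, and its 3 probe sets above the filter reached up to 0.05. In the list of JNK, p38 and ERK5 cascades, 3 of 11 passed 1.5-fold upward and 1 downward (median 0.01). MAP3K5, the stress kinase ASK1, read 1434 with miR-129-3p and 374 in control (1.89). MAPK10, the JNK form best known from neurons, read 204 with miR-129-3p and 78.5 in control, at least 2.04-fold higher against the filter value. MAP3K1 stood at 0.83 and MAP3K7, the kinase TAK1, at -0.82.

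Other immediate-early genes also went both ways. Of 33 measured, 10 (30.3%) were lower by 1.5-fold or more and 7 (21.2%) higher, against 10.8% and 17.3% of all measured genes. The median was -0.25. The higher count was 3 of 29 with 100 or more required on both arrays, 4 of 32 with probe sets averaged per gene, and 4 of 24 without those ending in _x_at or _s_at. EDN1, which encodes endothelin 1, read 190 with miR-129-3p and 1347 in control (-2.73). CCN1, a matrix protein induced by serum, read 1858 with miR-129-3p and 8046 in control (-2.11), and GADD45B, a stress response gene, read 654 and 2843 in the same order of arrays (-2.09). KLF4, a zinc finger factor, had the highest difference of the list, with 1025 on the miR-129-3p array and 63.2 in control. PTGS2, the inducible cyclooxygenase, read 553 with miR-129-3p and 69.2 in control, and NR4A2, an orphan nuclear receptor, 387 and 89.7. The control signals of these 3 were under the filter, against which KLF4 was at least 10.2-fold, PTGS2 at least 5.53-fold and NR4A2 at least 3.87-fold higher.

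Of 15 measured relatives and partners that share dimers or DNA sites with the members, 10 (66.7%) were within 1.5-fold, near the 71.9% of all measured genes. Among the bZIP relatives, 2 of 10 measured passed 1.5-fold upward and 1 downward (median 0.13). BATF2, a JUN partner induced by interferon, read 1431 with miR-129-3p and 27.9 in control. That control signal is under the filter, so BATF2 passed only through the miR-129-3p array, and against the filter value it was at least 14.3-fold higher. BATF3, of the same family, read 266 with miR-129-3p and 105 in control (1.22). JDP2, a repressor that dimerises with JUN, read 156 with miR-129-3p and 809 in control (-2.26), but its other probe set above the filter stood at -0.18. In the list of EGR relatives and co-repressors all 5 measured genes lay above 0 and 2 were at least 1.5-fold higher (median 0.49). Besides KLF4 this was NAB1, a protein that binds EGR1 and represses it, with 1614 on the miR-129-3p array and 1062 in control (0.60, and 0.28 on the lowest of its 3 probe sets). NAB1 lies at the limit: under each of the 3 other scalings the list had 1 higher gene.

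Textbook targets of the members did not follow a single direction. Of 14 measured EGR1 targets, 5 (35.7%) were lower by 1.5-fold or more and 2 (14.3%) higher, against 10.8% and 17.3% of all measured genes. The median was -0.04. Without probe sets ending in _x_at or _s_at, 7 of these genes were left, 4 of them lower and 1 higher, with a median of -1.20. PDGFB, a platelet-derived growth factor chain, read 45.3 with miR-129-3p and 787 in control on its brightest probe set. It passed the filter only through the control array, and against the filter value it was at least 7.87-fold lower. F3, tissue factor, read 1604 with miR-129-3p and 3707 in control (-1.20). ICAM1, an adhesion molecule also induced by NF-kappaB, read 362 with miR-129-3p and 126 in control (1.41), with its 3 probe sets between 0.46 and 1.41. TNFRSF10B, a death receptor, stood at 0.62, with probe sets between -0.36 and 1.37. EGFR was listed here too, with the values above.

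Of 12 measured AP-1 targets, 3 (25%) passed 1.5-fold upward and 1 (8.33%) downward, against 17.3% and 10.8% of all measured genes. The median was 0.10. ITGA2, an integrin subunit for collagen, read 4151 with miR-129-3p and 447 in control (3.17, and 3.28 on its other probe set). PLAUR, the urokinase receptor, read 6675 with miR-129-3p and 2442 in control (1.44), and CXCL8, interleukin 8, stood at 1.12 with its other probe set at 0.50. KRT18, a keratin, read 2972 with miR-129-3p and 5787 in control (-0.96). The matrix metalloproteinase genes MMP1, MMP3, MMP9 and MMP10 were under the filter on both arrays, and were named after their values were seen.

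Factors that control how long the members' products last were within 1.5-fold for 18 of 22 measured genes (81.8%), against 71.9% of all measured genes. In the list for JUN and FOS protein turnover, 1 of 8 measured genes was at least 1.5-fold higher and 0 were lower (median -0.11). The higher gene was the ubiquitin ligase UBR1 (0.63, and 0.44 on its other probe set above the filter). In the list of factors that bind AU-rich elements or decay mRNA, 2 of 14 were higher and 1 lower (median 0.11). These were EXOSC10, a subunit of the RNA exosome (0.79), CNOT8, a deadenylase subunit (0.62), and ZFP36L2, a protein that marks AU-rich mRNAs for decay (-0.64). The 3 measured probe sets of CNOT8 went down to 0.45, and the 3 of ZFP36L2 reached up to -0.12.

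**Figure D4:**
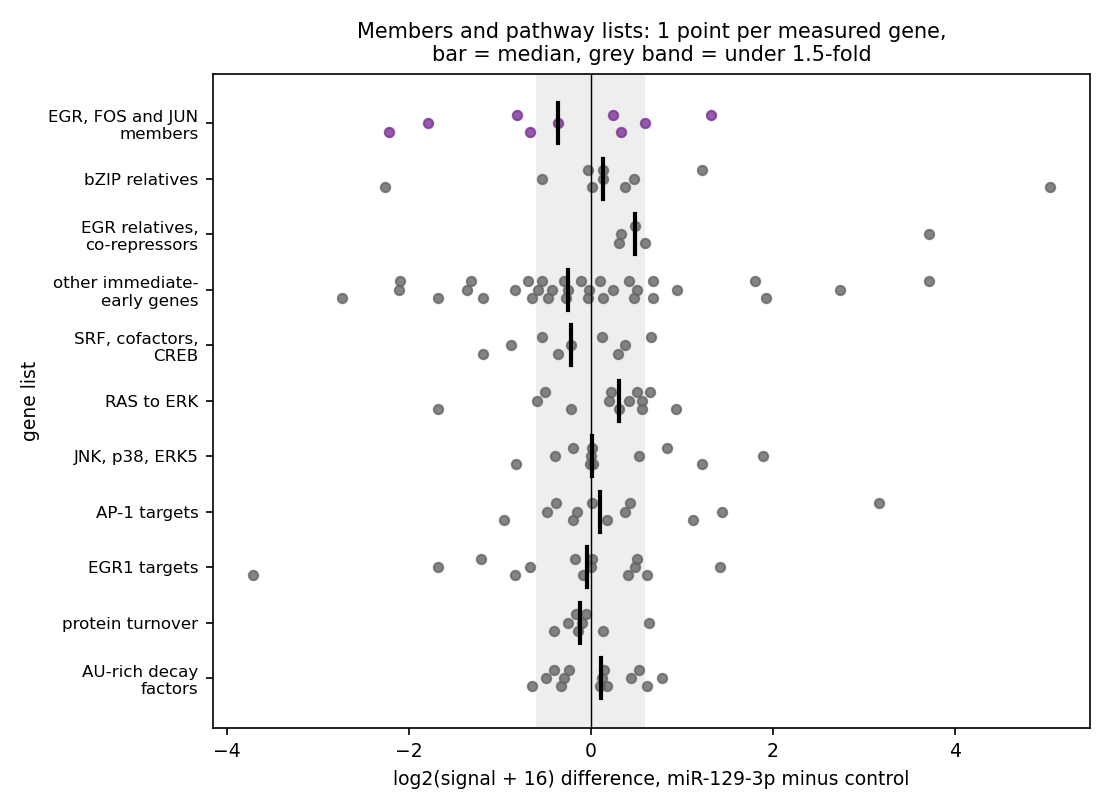
Difference in log2(signal + 16), miR-129-3p minus control, with 1 point per measured gene for the 9 members (purple, top) and 10 pathway lists (grey); black bars are medians and the grey band is under 1.5-fold. The medians of the 10 lists run between -0.25 and 0.49, and the members spread on both sides of the band.

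The 10 lists held 145 genes, of which 11 stood in more than 1 list and 17 were not analysed here. Of the 118 measured, 24 (20.3%) passed 1.5-fold upward and 20 (16.9%) downward, where all measured genes gave the 17.3% and 10.8% above.

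The labelled cell type was checked against markers. The epithelial and eye-field genes MITF (1020 with miR-129-3p and 2470 in control), OTX2 (1625 and 1452) and KRT8 (4918 and 6138) had clear signal, whereas the 7 markers RPE65, RLBP1, BEST1, TYR, TYRP1, SERPINF1 and LRAT, several of them genes of mature pigment epithelium, were under the filter on both arrays. Of the 7 measured, 3 (42.9%) were at least 1.5-fold lower: MITF, PAX6 (871 with miR-129-3p and 1387 in control) and KRT18. PMEL (229 and 114), a pigment granule protein, was higher, 1 of the 7 (14.3%). All measured genes gave 10.8% lower and 17.3% higher. The median of the 7 was -0.32. The 14 markers summed to signals of 12086 with miR-129-3p and 17803 in control. Of 10 mesenchymal markers 8 were measured, and 5 of these (62.5%) were at least 1.5-fold lower and 1 (12.5%) higher. The 10 summed to signals of 25072 with miR-129-3p and 43704 in control. Blood cell markers summed to 404 with miR-129-3p and 415 in control over 7 genes, 6 of them under the filter. The pigment epithelial and mesenchymal sums rest mainly on a few bright genes. KRT8 and KRT18 (2972 with miR-129-3p and 5787 in control) were the brightest pigment epithelial markers. Of the 7 measured in that list, 3 lay above 0 and 4 below. TAGLN (641 with miR-129-3p and 8348 in control) had the largest drop of the mesenchymal list. Both sums were lower with miR-129-3p, as EGR1 was, and their part in that result was not tested.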

How the data were processed

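The 2 arrays are Affymetrix 3' arrays hybridised with biotin-labelled cRNA from 100 ng of total RNA, per the labels' protocols. The authors deposited 1 intensity per probe set and array, on a linear scale from 1 to 20822. MAS5 and RMA are named, per the submitters' processing notes; which of them gave these values, and how the 2 arrays were scaled, is not given in the sources used here. Compression or flooring of low values upstream would affect FOSB, FOS and EGR3 most.

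Probe sets were named from the platform annotation: 41091 had 1 gene symbol, 1801 had several (0 of these with a member) and 11721 were not listed. Symbols were updated by gene ID, which matched the GRCh38.p14 gene table for 41037 probe sets. Groups came from the genotype label, and no test was made, with n = 1 per group.

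All members have every probe set reported. In each list up to 3 genes per direction are named, those with the largest differences among measured genes at least 1.5-fold apart; EGR1 and AP-1 target lists and the others were composed from textbook knowledge. No gene was ranked for likeness to a member, since 2 arrays give no pattern. The members and lists were chosen with earlier results of these data known.

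Alternatives were median centring, quantile normalization, subtraction of a loess trend (span 0.4), added constants of 1 and 64, no filter, a mean signal of 200 or more, the mean of all probe sets, the brightest probe set whose name ends in neither _x_at nor _s_at, and 2-fold and 3-fold limits. A floor of 100, a signal of 100 or more on both arrays, and a call only where every probe set of the gene passed the limit, were added after seeing the data. The code was tested on simulated data. Scripts ran in Python 3.11.15 with pandas 2.3.3 and numpy 2.4.6; the loess trend came from statsmodels 0.14.6 and the figures from matplotlib 3.10.9. The number of arrays limits the precision of every value.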

Additional observations from a re-analysis of the deposited data

How the results depend on the processing

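No paired analysis was possible because each group held 1 array, and no array could be left out. The lower calls of EGR1, EGR3 and FOS and the higher call of FOSL1 had the same direction in each alternative that kept the gene. EGR1 was not kept without probe sets ending in _x_at or _s_at, where 3 of 7 members were lower. Their differences ranged from -1.85 to -1.60 for EGR1, from -2.55 to -1.30 for EGR3, from -0.89 to -0.65 for FOS and from 1.23 to 1.35 for FOSL1, and that of FOSB from -0.77 to -0.34. The count of members at least 1.5-fold higher was 1 in place of 2 with median centring, quantile normalization, the loess trend subtracted, the mean of all probe sets and agreement of all probe sets, and FOSL2 was the gene lost each time. It was 1 at 2-fold and 0 at 3-fold. The count of members lower was 2 in place of 4 at 2-fold and at 3-fold, and 1 with a mean signal of 200 or more, which left 6 members, without EGR3, FOS and FOSB, and turned their median to 0.29 in place of -0.36. With 100 or more required on both arrays the lower count was 2 and the median 0.25, over 7 members without EGR3 and FOSB. The lower count was 3 with an added constant of 64 and with a floor of 100, where FOSB fell short of 1.5-fold. Of the member probe sets, 1 was higher at 2-fold and 0 at 3-fold in place of 3, and 3 were lower at 3-fold in place of 6. Of the genes of the 10 lists, 12 were higher at 2-fold and 7 at 3-fold in place of 24, and 11 and 7 were lower in place of 20. For single members, 89 of 92 alternative values moved by less than the pooled SD of 0.37, 3 moved by more and 0 changed sign after a call. Many of these values could not move. The filter settings only keep or drop a gene, and a gene with a single probe set has the same value however probe sets are chosen or averaged. This tally is therefore not a measure of robustness. For the single lists, 280 of 340 alternative values stayed near the reported one, a count within 1.5 times of it or a median within the pooled SD, and 60 did not. The only list median among these was that of the EGR1 targets, -1.20 without probe sets ending in _x_at or _s_at; the others were counts.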
